A study of Mus musculus with 26 samples.

Results

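Etv1, Etv4, Etv5, Spry1, Spry2, Spry4, Spred1, Spred2 and Dusp6 are 9 genes known as targets and feedback regulators of the pathway from fibroblast growth factor (FGF) receptors to the kinase ERK. They were followed by symbol through RNA-seq of sorted fetal mouse tract mesenchyme, where they are 9 of 41442 gene rows, and all 9 passed the filter on low counts in both tables. The list was chosen by function with earlier results of the same data in view, and Etv4 was selected on its CPM in females and males at E14.5. Every comparison of Etv4 that uses an E14.5 library is therefore given as a description without a test.

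FGF receptors and other receptor tyrosine kinases activate RAS and then the kinases RAF, MEK and ERK. Etv1, Etv4 and Etv5 form the PEA3 branch of the ETS transcription factors, which are widely used as readouts of FGF signalling. Sprouty and Spred proteins act back on the RAS step as inhibitors, and Dusp6 is a phosphatase that removes the activating phosphates from ERK. In the developing urogenital tract, FGF10 from mesenchyme signals to duct epithelium, and Etv4 and Etv5 act downstream of the receptor Ret in the ureteric bud.

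The study labelled mesenchyme with a red fluorescent reporter, Rosa-Tomato, in 2 mouse lines: Gli1-CreER, in which tamoxifen switches on the reporter in cells expressing the hedgehog target Gli1, and Amhr2-Cre, driven by the gene of the anti-Müllerian hormone receptor. All dams received 1 mg tamoxifen on E12.5 and again on E13.5 (E, days of embryonic development). Gli1+ cells were sorted from the mesonephros at E14.5 and at E16.5, for XX (female) and for XY (male) embryos separately, with 3 RNA-seq libraries for each sex and age, and Gli1+ and Amhr2+ cells were sorted from the uterus of females, 3 libraries each, which the labels give both as neonatal and as E19.5. Another 8 libraries of accessible chromatin (ATAC-seq) came from the fetal Gli1+ cells. The Gli1+ fraction is thus what descended from cells using Gli1 at the time of tamoxifen, and the Amhr2+ fraction what used Amhr2 at any time up to sorting. No label says whether libraries came from separate animals, pooled animals or litters, so p-values measure the spread between libraries, which may be technical.

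Library totals were 23382983 to 64602477 counts in the fetal table and 28709191 to 37541045 in the uterine table, and the tables were fitted apart because tissue, age and library kit differed. Levels are CPM (reads of a gene relative to all counted reads of its library) scaled by TMM, a normalization on the bulk of genes. All 10 mesenchyme markers were at 1 CPM or more in all 6 groups, while the duct and kidney epithelium genes Ret, Pax2, Lhx1 and Wnt9b and the nephron progenitor genes Six2 and Cited1 were under 1 CPM in all of them. Between 5 and 7 of the 12 epithelium genes were at 1 CPM or more in each group, with Emx2 up to 100.4 CPM, Wnt11 up to 45.6 CPM and Krt18 up to 24.7 CPM on average, and the progenitor gene Eya1 averaged 7.02 to 38.5 CPM. Summed erythroid genes reached 884 CPM in E14.5 female replicate 3 and 23.9 CPM at most in the other libraries. Gli1 averaged 50.7 CPM in E16.5 females and 184 to 228 CPM in the other fetal groups. The summed level of 11 genes that respond to tissue dissociation ranged from 4059 to 19732 CPM among the E16.5 male libraries and from 1320 to 13282 CPM among the uterine Gli1+ libraries. Libraries of other groups stayed between 4072 and 18023 CPM, so E16.5 male replicate 1 and uterine Gli1+ replicate 2 stood lowest in their tables.

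The sequence just upstream of Etv4 and Etv5 is shown first because both windows carry an octamer that their relative Etv1 lacks there. All 3 genes, Etv1 included, differed between groups in what follows. Etv1 has 13 annotated starts, Etv4 10 and Etv5 5, and only the window before the 5′ end of each gene was searched. The transcriptional repressor Capicua (Cic) binds the octamers TGAATGAA and TGAATGGA, represses PEA3 genes, and is displaced from DNA when ERK is active. Each line gives the 250 bases before the annotated 5′ end of the gene on the mouse build GRCm38 (mm10), on the strand of the gene, with matches to either octamer in capitals. The windows are chr11:101785372-101785621 on the minus strand for Etv4, chr16:22439720-22439969 on the minus strand for Etv5 and chr12:38779130-38779379 on the plus strand for Etv1. None of the 3 windows overlaps an annotated exon.
Etv4: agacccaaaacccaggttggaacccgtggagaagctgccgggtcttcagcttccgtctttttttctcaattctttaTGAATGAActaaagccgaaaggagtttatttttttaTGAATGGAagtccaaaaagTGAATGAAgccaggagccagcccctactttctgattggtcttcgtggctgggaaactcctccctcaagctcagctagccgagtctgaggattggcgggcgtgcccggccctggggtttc
Etv5: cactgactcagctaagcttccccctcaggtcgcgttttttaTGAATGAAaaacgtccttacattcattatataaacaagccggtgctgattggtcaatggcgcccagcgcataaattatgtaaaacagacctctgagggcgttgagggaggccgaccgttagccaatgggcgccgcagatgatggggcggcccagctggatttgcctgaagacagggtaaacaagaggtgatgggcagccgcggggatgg
Etv1: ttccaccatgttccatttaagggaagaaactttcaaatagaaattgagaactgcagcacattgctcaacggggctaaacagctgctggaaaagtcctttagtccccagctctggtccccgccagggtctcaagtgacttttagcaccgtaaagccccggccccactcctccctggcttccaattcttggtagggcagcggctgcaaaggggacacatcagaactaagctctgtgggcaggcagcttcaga

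The Etv4 window held TGAATGAA 174 and 119 bases before the 5′ end and TGAATGGA 138 bases before it. The Etv5 window held TGAATGAA once, 209 bases before its 5′ end. Searched on both strands, one or other octamer was present in 1.52% of 17818 windows of the same length, and 6 of those windows, 0.0337%, held 3 or more matches, that of Etv4 among them. The windows of the other 7 genes held neither. Of 3 further motifs, the ETS motif GGAAGT was in 1 member, Etv4, where it overlaps the TGAATGGA match, and in 20.3% of all windows. The ETS motif CCGGAA was in 1 member, Spry4, and in 17.8% of all windows. The AP-1 motif TGANTCA was in 1 member, Etv5, and in 4.62% of all windows. A match is a stretch of letters and not a measured binding site.

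The authors' list of 71040 ATAC-seq peaks pools all fetal samples and has no sample column, so it gives positions and no comparison of sexes or ages. All 9 genes had a listed peak within 1 kb of an annotated start site, as did 89.1% of 14577 tested genes with an annotation. A peak of 508 bases covered the Etv4 start and 168 of the 250 bases printed above. The Etv4 octamers 138 and 119 bases before the 5′ end lay in this peak, and the one at 174 bases lay mostly outside it. A peak of 939 bases covered the Etv5 start and its whole printed window. At Etv1 a peak of 375 bases covered the start and 36 bases of its window. A peak lay on a start site in 7 of the 9 genes and in 81.3% of the tested genes. Spry2 and Spred1 had none there, with their nearest peaks 231 and 120 bases away. Along the gene bodies, Spred2 held 8 peaks, Etv1 5 and Etv5 4, while Dusp6 and Spred1 held 1 each and Spry2 none.

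**Figure D1:**
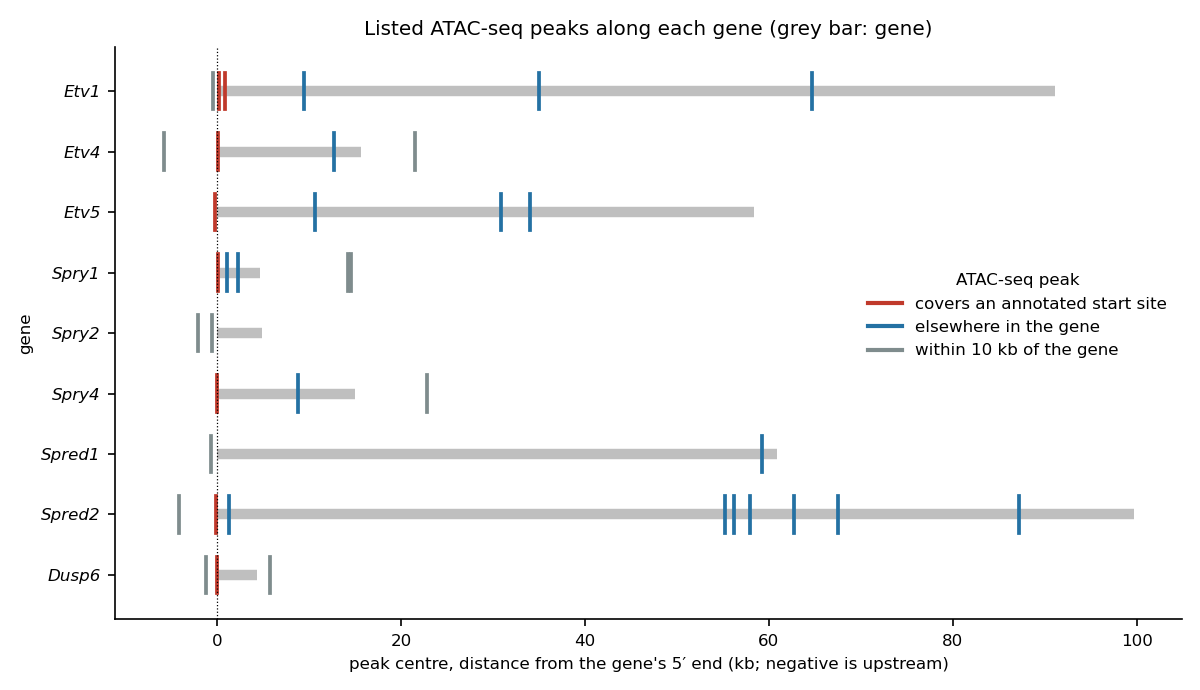
Positions of the listed ATAC-seq peaks along each of the 9 genes. The x axis gives the distance of the peak centre from the gene's 5′ end in kb, grey bars are the gene bodies, and colours separate peaks on a start site, elsewhere in the gene and within 10 kb of it. Of the 9 genes, 7 have a peak on a start site, as do 81.3% of tested genes with an annotation, and Spred2 holds 8 peaks within the gene.

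Levels of different genes were compared per kb of exon. In E14.5 females, Spry1 and Spred1 were the highest at 33.3 and 30.8 CPM per kb, followed by Dusp6 at 22.9, Spry2 at 18.2, Spred2 at 13.2 and Spry4 at 8.13 CPM per kb. The 3 PEA3 genes were the lowest in that group, with Etv5 at 6.38, Etv4 at 4.76 and Etv1 at 2.28 CPM per kb. The value of Etv1 rests on a merged exon length of 13296 bases over 13 annotated starts, and a shorter transcript in use would raise it. In uterine Gli1+ cells Spry2 was the highest at 27.7 CPM per kb and Etv1 the lowest at 0.351 CPM per kb.

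**Figure D2:**
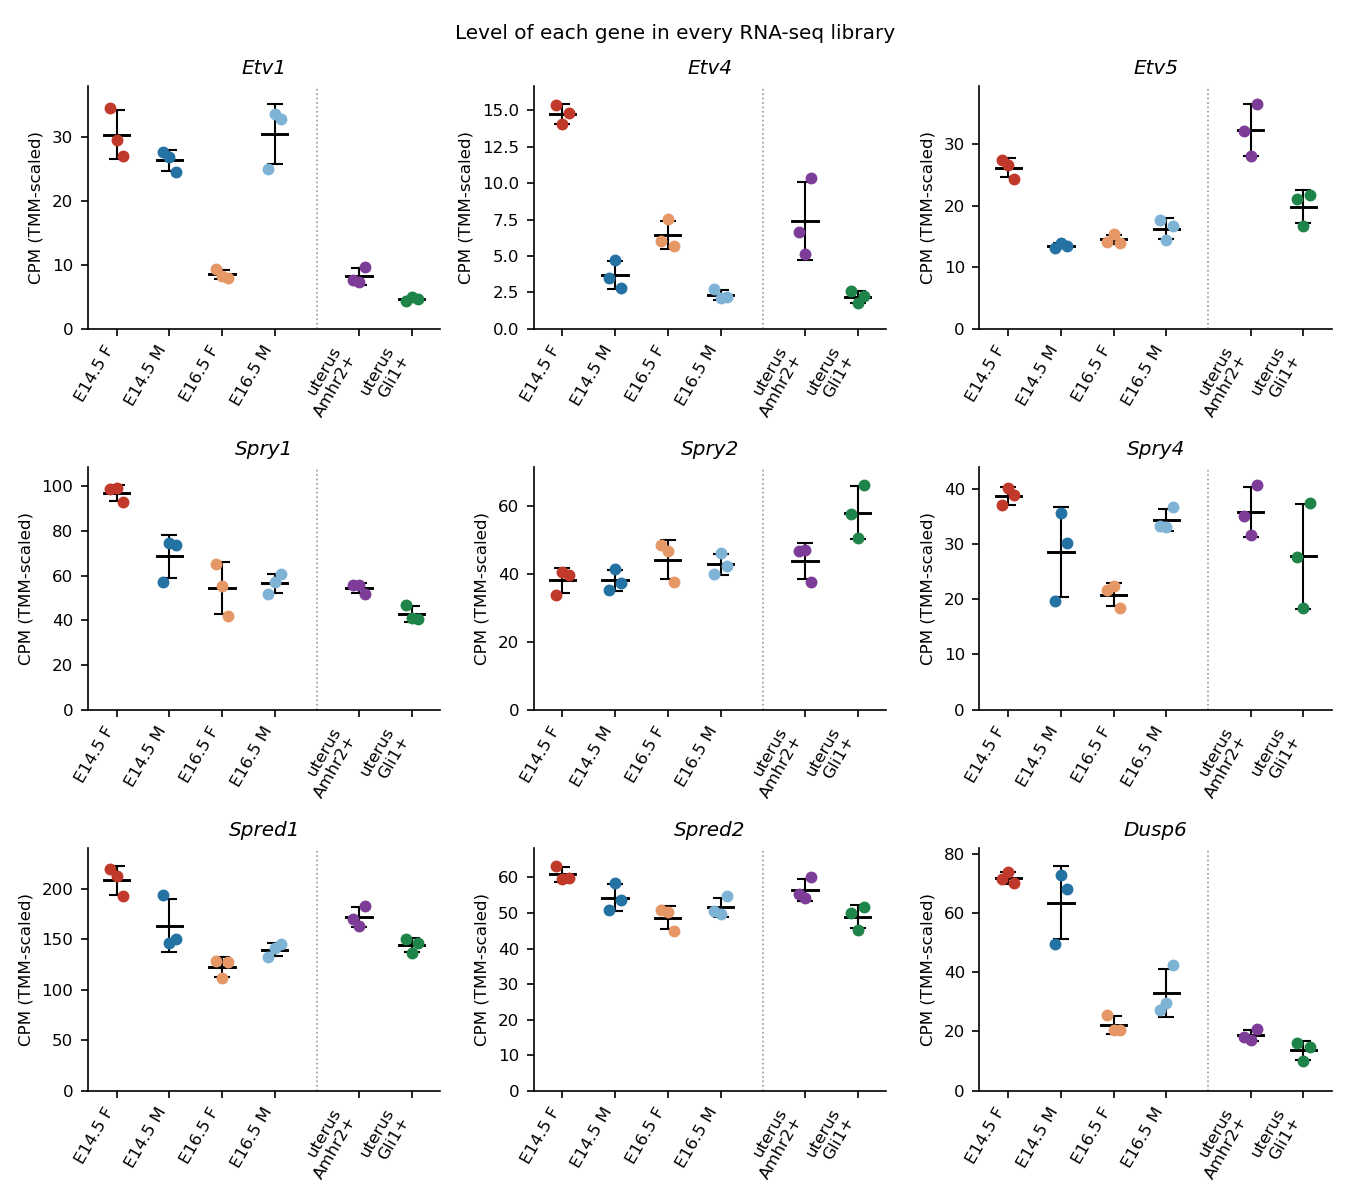
TMM-scaled CPM of each gene on a linear axis from 0, 1 point per library, with the mean (horizontal bar) and SD (whiskers, n = 3) of each group. F and M are female and male Gli1+ cells, and the dotted line separates the fetal from the uterine table. Etv4 is the gene whose 4 fetal groups do not overlap for any neighbours in order, Etv1 is low in E16.5 females, and Spry2 has the narrowest range.

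Etv4 was the gene with the widest range among the fetal groups. In E14.5 libraries it measured 15.4, 14.1 and 14.8 CPM in females and 3.45, 4.72 and 2.81 CPM in males. In E16.5 libraries it measured 6.05, 7.54 and 5.71 CPM in females and 2.71, 2.11 and 2.15 CPM in males. Every female library was above every male library of either age, and the order from E14.5 female through E16.5 female and E14.5 male to E16.5 male had no overlap between neighbours. The means of the highest and lowest groups differed 6.36-fold. At E14.5 the log2 difference between females and males was 2.01 ± 0.17 (SE), given without a test.

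Beyond Etv4, 2 of the other 8 genes passed the threshold between the sexes at E14.5 in edgeR's quasi-likelihood test, Etv5 and Spred1, both higher in females, where 6.28% of all tested genes passed in either direction. Such differences are per unit of sorted RNA, and a smaller share of cells using a gene cannot be told apart from less of its RNA per cell. Etv5 measured 27.5, 26.7 and 24.4 CPM in females and 13.1, 13.9 and 13.4 CPM in males, with no overlap. Its log2 difference was 0.95 ± 0.09 (SE), edgeR adjusted p = 1.2e-05, and it stayed past the threshold in all 17 alternative settings. Spred1, which binds RAS pathway proteins and dampens RAF activation, measured 220, 213 and 193 CPM in females and 194, 146 and 151 CPM in males. Male replicate 1 lay within the female range of Spred1.

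The call on Spred1 at E14.5, a log2 difference of 0.35 ± 0.10 (SE) with an edgeR adjusted p of 0.043, was lost with most single libraries left out. Without E14.5 female replicate 1, 2 or 3 the adjusted p was 0.172, 0.141 and 0.0545, and without E14.5 male replicate 2 or 3 it was 0.194 and 0.206. Leaving out E16.5 female replicate 1 or E16.5 male replicate 2, which only inform the spread, gave 0.0577 and 0.0555. Over all genes, leaving out E14.5 male replicate 3 took the number called from 1121 to 553.

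Sprouty genes at E14.5 lay near or below the threshold. Spry1, an inhibitor of receptor tyrosine kinase signalling, measured 98.9, 99.0 and 92.7 CPM in females and 57.3, 74.7 and 73.7 CPM in males, so the groups did not overlap, as for 27.2% of all tested genes. Its log2 difference was 0.50 with an edgeR adjusted p of 0.051, and DESeq2 gave 0.0045. It also passed in edgeR with the 6 E14.5 libraries fitted alone, at 0.00535, and without E16.5 female replicate 1 or 3, at 0.0172 and 0.00685. Spry4 had a log2 difference of 0.43 with an edgeR adjusted p of 0.15 and a DESeq2 value of 0.046, and it passed in edgeR without E14.5 male replicate 2, at 0.0286. E14.5 male replicate 1 was the lowest of its group for Spry1 and Spry4 and also for Dusp6, at 49.4 CPM against 72.8 and 68.2 CPM. Dusp6, Etv1, Spred2 and Spry2 had log2 differences between 0.00 and 0.21 and did not pass.

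At E16.5 the sexes were ordered differently, with 4 of 9 genes past the threshold against 27.3% of all tested genes. Of the 9 genes, 3 were called higher in males, against 14.1% of all tested genes. Of the 4883 genes called in all, 2522 were higher in males. Etv1 measured 9.31, 8.20 and 7.96 CPM in females and 25.0, 33.5 and 32.7 CPM in males, a log2 difference of -1.84 ± 0.12 (SE), edgeR adjusted p = 2.0e-08. Every male library was above every female library for Etv1, where 38.3% of all tested genes showed no overlap between the sexes at E16.5. Etv4 differed in the opposite direction, by 1.47 ± 0.18 (SE) on the log2 scale, edgeR adjusted p = 1.4e-05. These close relatives were thus higher in opposite sexes in the same libraries, and Etv5 at -0.16 with an edgeR adjusted p of 0.19 did not pass in either direction.

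Spry4 was the Sprouty gene that passed at E16.5. It measured 21.7, 22.4 and 18.4 CPM in females and 33.3, 33.1 and 36.6 CPM in males. The sexes did not overlap, as for 38.3% of all tested genes. Its log2 difference was -0.72 ± 0.16 (SE), edgeR adjusted p = 0.004. Dusp6 measured 25.7, 20.4 and 20.6 CPM in females and 27.2, 29.5 and 42.3 CPM in males, with the E16.5 male replicate 3 well above the other two. Its log2 difference was -0.57 ± 0.18 (SE), edgeR adjusted p = 0.031. The call was lost with the replicate number as a block, treated as pairing the libraries at this age, at an adjusted p of 0.0742. It was also lost with no filter on low counts, at 0.103, without E16.5 female replicate 2 or 3, at 0.103 and 0.0963, and without E16.5 male replicate 3, at 0.0886 with a log2 difference of -0.36. Spry1, Spry2, Spred1 and Spred2 had log2 differences from -0.19 to 0.05 at E16.5, none past the threshold.

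Other measurements moved with sex in these libraries. At E16.5 the hedgehog targets Ptch1, Hhip and Gli1 averaged 76.6, 2.17 and 50.7 CPM in females and 671, 86.3 and 208 CPM in males. At E14.5 they averaged 616, 37.2 and 184 CPM in females and 855, 62.5 and 228 CPM in males. Summed mesothelium genes at E14.5 were 31.5 to 40.3 CPM for females and 48.8 to 53.2 CPM for males. Summed endothelium genes at E16.5 were 64.3 to 77.5 CPM for females and 81.8 to 91.5 CPM for males, but the genes of this sum differed in direction. Their female and male means were 30.1 and 47.8 CPM for Kdr but 37.1 and 27.8 CPM for Emcn. Cdh5 and Tek were higher in males like Kdr, and Pecam1, under 1 CPM in either sex, was higher in females like Emcn. The summed level of 5 smooth muscle genes was 302 to 325 CPM in females and 604 to 885 CPM in males at E14.5, and 464 to 564 CPM in females and 1699 to 2856 CPM in males at E16.5. The summed level of the 12 epithelium genes overlapped between the sexes at E14.5, at 91.8 to 98.4 CPM in females and 83.6 to 96.1 CPM in males. At E16.5 it was 85.5 to 112 CPM in females and 56.9 to 70.2 CPM in males, carried mostly by Emx2 and Wnt11, while the epithelial keratin Krt18 averaged 8.16 CPM in females and 12.8 CPM in males and Cdh1 was under 1 CPM in both. The dissociation genes of E16.5 male replicates 1 and 3, at 4059 and 19732 CPM, stood on either side of the females at 10548 to 18023 CPM. Without E16.5 male replicate 1 the log2 differences were 1.59 for Etv4, -1.96 for Etv1, -0.74 for Spry4 and -0.69 for Dusp6. The part of these other genes in the differences of the 9 genes was not tested.

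Between E14.5 and E16.5 in females, 7 of the 8 genes other than Etv4 passed the threshold and all 7 fell, beside 39.6% of all tested genes called and 18.6% called lower. Etv1 fell by 1.83 and Dusp6 by 1.69 on the log2 scale, with edgeR adjusted p-values of 2.0e-08 and 1.8e-05. Dusp6 went from 71.5, 73.9 and 70.0 CPM to 25.7, 20.4 and 20.6 CPM, and Etv1 from 34.5, 29.4 and 27.0 CPM to 9.31, 8.20 and 7.96 CPM. For both genes the ages did not overlap, which held for 56.6% of all tested genes. Other measurements also moved with age in females. Summed endothelium genes were 112 to 123 CPM at E14.5 and 64.3 to 77.5 CPM at E16.5, and the smooth muscle genes 302 to 325 CPM and 464 to 564 CPM. The hedgehog targets Ptch1 and Hhip averaged 616 and 37.2 CPM at E14.5 and 76.6 and 2.17 CPM at E16.5. The summed dissociation genes were 9043 to 10062 CPM at E14.5 and 10548 to 18023 CPM at E16.5. Summed mesenchyme genes were 41714 to 43778 CPM and 59275 to 68863 CPM, though Pdgfra, Pdgfrb and Twist1 averaged lower at E16.5. The part of these other genes in the changes of the 9 genes was not tested.

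Etv5 and the inhibitors had smaller changes. Spry4 fell by 0.89, Etv5 by 0.85, Spry1 by 0.84, Spred1 by 0.76 and Spred2 by 0.32 on the log2 scale, with edgeR adjusted p-values between 2.7e-06 and 0.0027. Spry1 went from the E14.5 values above to 65.4, 55.4 and 42.1 CPM at E16.5. Spry2 had the opposite sign, from 33.8, 40.6 and 39.5 CPM to 48.3, 46.6 and 37.5 CPM, and its log2 difference of 0.22 with an edgeR adjusted p of 0.10 did not pass, though it did without E16.5 female replicate 3, at 0.0166. Etv4 had a log2 difference of -1.20, described without a test. The median log2 change of the 9 genes, Etv4 included, was -0.85, and that of all tested genes 0.00.

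In males the same interval gave 2 of 8 genes past the threshold, beside 23.3% of all tested genes. Dusp6 fell by 0.94 on the log2 scale, edgeR adjusted p = 0.0019, from 49.4, 72.8 and 68.2 CPM to 27.2, 29.5 and 42.3 CPM. Etv5 rose by 0.27, from 13.1, 13.9 and 13.4 CPM to 17.7, 14.4 and 16.7 CPM, with an edgeR adjusted p of 0.041. The Etv5 call in males was lost in 11 of 17 alternative settings, with adjusted p-values up to 0.137, the value without E16.5 male replicate 1. Etv1 measured 27.6, 26.8 and 24.5 CPM at E14.5 and 25.0, 33.5 and 32.7 CPM at E16.5, with a log2 difference of 0.21 and an edgeR adjusted p of 0.20. It passed without E16.5 male replicate 1, at 0.0248, and Spry4, at 0.26 with 0.27, passed without E14.5 male replicate 2, at 0.0425. Spred1, at -0.23 with 0.11, passed with library size as the only scaling, at 0.0305. Labels name no batch, so age cannot be told apart from anything that differed between collections of the 2 ages.

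The change of the sex difference with age was tested directly as an interaction, and 4 of the 8 genes other than Etv4 passed beside 10.0% of all tested genes, all 4 with the female side falling relative to the male side. They were Etv1 at -2.05 ± 0.17 (SE), Spry4 at -1.15 and Etv5 at -1.12 on the log2 scale, with edgeR adjusted p-values of 1.1e-06, 0.0046 and 3.4e-05, and Spred1 at -0.54 with 0.019. The sex difference of Etv1 went from 0.21 at E14.5, not past the threshold, to -1.84 at E16.5, and that of Etv5 from 0.95 to -0.16, which did not pass. The Spred1 call was lost without E14.5 female replicate 1 or 2, E14.5 male replicate 2 or 3, or E16.5 female replicate 2, at adjusted p-values of 0.0582, 0.0505, 0.0522, 0.0593 and 0.053. Dusp6 at -0.75 with an edgeR adjusted p of 0.083 passed in DESeq2, at 0.0092, and without E16.5 male replicate 1, at 0.0397. Spry1 at -0.55 with 0.096 passed in DESeq2, at 0.0285, and without E16.5 female replicate 1, at 0.0158. Etv4 had a log2 value of -0.54, without a test.

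**Figure D3:**
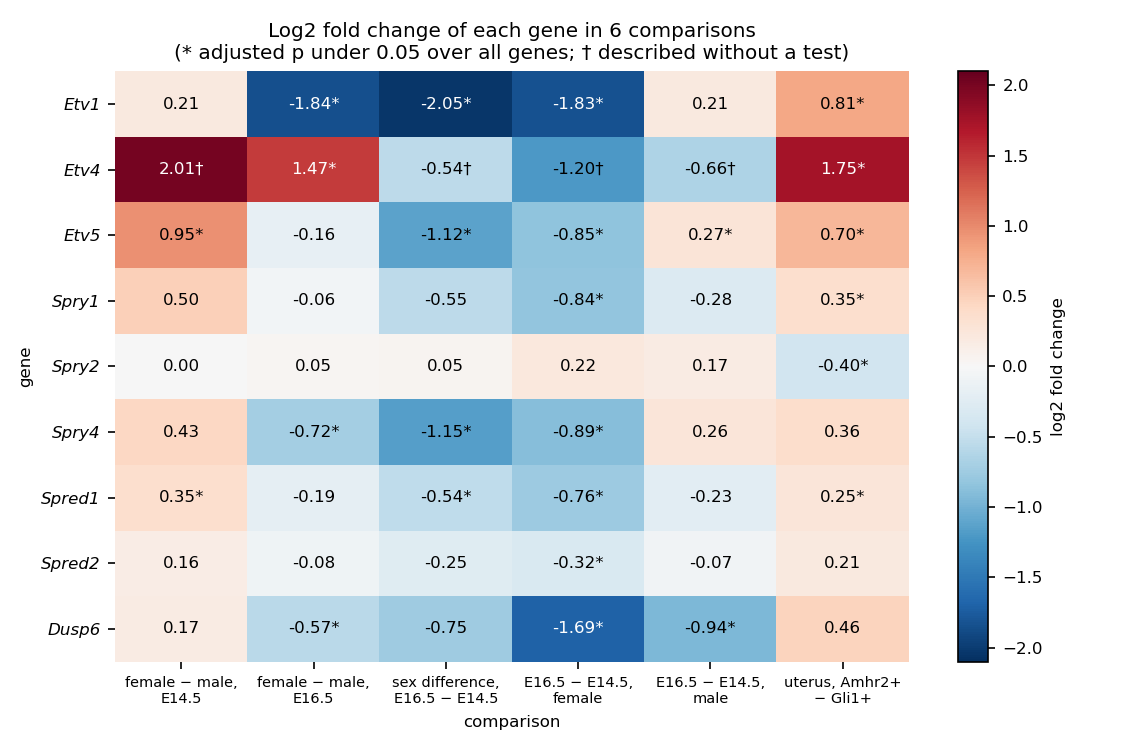
Log2 fold change of each of the 9 genes (y axis) in 6 comparisons (x axis), with red for higher in the first-named group and blue for lower. An asterisk marks an edgeR adjusted p under 0.05 over all tested genes and a dagger an Etv4 value described without a test. Etv4 and Etv1 have opposite signs between the sexes at E16.5, at 1.47 and -1.84, and all genes but Spry2 are negative for age in females.

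Of the 9 genes, 6 passed between the populations of the E19.5 uterus, 5 of them higher in Amhr2+ cells, beside 23.9% of all tested genes called and 10.1% called higher in Amhr2+ cells. All 3 PEA3 genes were higher in Amhr2+ cells with no overlap, as 44.4% of all tested genes showed no overlap between these groups. Etv4 measured 6.66, 5.15 and 10.3 CPM in Amhr2+ and 2.56, 1.73 and 2.23 CPM in Gli1+ libraries, a log2 difference of 1.75 ± 0.28 (SE), edgeR adjusted p = 0.003. Amhr2+ replicate 3 was the highest of the 6. Etv1 measured 7.65, 7.23 and 9.69 CPM against 4.32, 5.01 and 4.67 CPM, a log2 difference of 0.81, and Etv5 32.2, 28.1 and 36.6 CPM against 21.1, 16.8 and 21.7 CPM, a log2 difference of 0.70. Their edgeR adjusted p-values were 0.0072 and 0.006, and all 3 genes passed in each of 10 alternative settings.

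Among the inhibitors, Spry1 was higher in Amhr2+ cells at 55.7, 55.9 and 51.7 CPM against 46.9, 41.2 and 40.5 CPM, a log2 difference of 0.35 with an edgeR adjusted p of 0.014. That call was lost without Amhr2+ replicate 1, at 0.0634. Spred1 was higher by 0.25 with an edgeR adjusted p of 0.028, and lost the call when any library but Amhr2+ replicate 2 was left out, at 0.0529 to 0.0935. Spry2 was the gene lower in Amhr2+ cells, at 46.8, 46.9 and 37.6 CPM against 57.4, 50.3 and 66.0 CPM, a log2 difference of -0.40 with an edgeR adjusted p of 0.042. Its call was lost without any one library except Gli1+ replicate 2, at 0.0589 to 0.105, and with library size as the only scaling, at 0.067. Dusp6 at 0.46, Spry4 at 0.36 and Spred2 at 0.21 did not pass, with edgeR adjusted p-values of 0.083, 0.32 and 0.078. With library size as the only scaling, Dusp6 and Spred2 passed at 0.0385 and 0.0177, and Dusp6 passed in DESeq2 at 0.0371.

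The uterine groups also differed in other measurements. Gli1+ replicate 2 was the lowest of the 6 libraries for Etv4, Etv5, Spry4, Spred1, Spred2 and Dusp6 and for the dissociation genes, at 1320 CPM against 4072 to 5342 CPM in Amhr2+ cells. Without it the log2 differences were 1.61 for Etv4, 0.86 for Etv1 and 0.59 for Etv5, each past the threshold. The summed epithelium genes were 146 to 164 CPM in Amhr2+ and 109 to 131 CPM in Gli1+ libraries, with Emx2 the most abundant in both. In Amhr2+ and Gli1+ cells Epcam averaged 6.61 and 3.12 CPM, Krt8 18.9 and 8.25 CPM and Krt18 21.3 and 9.25 CPM. Among the epithelium genes at 1 CPM or more, Wnt11 went the other way, at 7.49 and 16.1 CPM. The smooth muscle genes were 1117 to 1760 CPM against 2093 to 2321 CPM. Summed mesenchyme genes were 27721 to 29744 CPM in Amhr2+ and 57825 to 65181 CPM in Gli1+ libraries, with Col1a2 averaging 5309 and 17839 CPM. Pdgfra, Pdgfrb and Twist1 of that list were slightly higher in Amhr2+ cells. Summed endothelium genes were 23.8 to 29.6 CPM against 36.7 to 44.9 CPM. The part of all these genes in the differences was not tested. With library size as the only scaling, 2849 genes were called higher and 1640 lower in Amhr2+ cells, against 1642 and 2224 with TMM, and leaving out Amhr2+ replicate 1 reduced the number called from 3866 to 1949. The corresponding numbers for age, higher and then lower at E16.5, were 3130 and 3924 against 3746 and 3322 in females and 1847 and 2641 against 2340 and 1828 in males.

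Other genes of the pathway were read from 5 lists written from textbook roles with earlier results known. Beside the counts below, 6.28% of all tested genes were called between the sexes at E14.5 and 27.3% at E16.5. For age 39.6% were called in females and 23.3% in males, with 10.0% in the interaction and 23.9% in the uterus. Of 23 other ERK-induced and feedback genes, 1 passed between the sexes at E14.5, the ERK phosphatase gene Dusp9, averaging 7.24 CPM in males and higher in females by 0.73 on the log2 scale. At E16.5, 3 were higher in females and 2 lower: Dusp9 again at 1.05, Flrt3 at 0.66 and Epha4 at 0.59, and Il17rd, a membrane inhibitor of FGF signalling, at -1.06 and the cyclin gene Ccnd1 at -0.52 on the log2 scale. In females 3 rose and 5 fell with age, among them Dusp4, which fell by 1.22, and Dusp9, which fell by 1.05, and in males 2 rose and 5 fell. In the interaction 2 of 23 passed, both lower, Il17rd and Ccnd1. In the uterus 4 of 22 were higher in Amhr2+ cells and 1 lower, with Dusp9 at 1.05, Dusp4 at 0.86 and Myc at 0.33, and Phlda1 at -1.09. The list's median log2 difference was -0.17 at E14.5 and 0.22 in the uterus, against 0.35 and 0.36 for the 9 genes. The E14.5 median of the 9 genes includes Etv4, which was selected on these values, so the 2 medians at E14.5 are not a like comparison. The immediate-early genes Egr1 and Fos passed in none of the 6 comparisons, but their spread was wide. Fos ranged from 602 to 3780 CPM among E16.5 male and from 206 to 2853 CPM among uterine Gli1+ libraries. Its uterine log2 difference was -1.03 ± 0.95 (SE), edgeR adjusted p = 0.49. These comparisons therefore cannot show that the 2 genes were unchanged.

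Of 11 tested FGF ligand and receptor genes, 3 were lower in females at E14.5 and none higher, and 6 were lower and 1 higher at E16.5, beside 6.28% and 27.3% of all tested genes called at these ages. Fgf10, the mesenchymal ligand, averaged 4.80 CPM in E14.5 females, 14.1 CPM in E14.5 males, 33.5 CPM in E16.5 females and 46.2 CPM in E16.5 males, opposite in sign to Etv4 at both ages. Fgfr2 averaged 104 CPM in females and 169 CPM in males at E16.5, a log2 difference of -0.70. In the uterus 1 of 12 was higher in Amhr2+ cells and 3 lower, beside 23.9% of all tested genes called. Fgf7 was among the lower genes, at 1.66 CPM against 7.74 CPM.

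Of 21 genes of the RAS to ERK cascade, 1 passed at E14.5, Map2k1, the gene of a MEK kinase, at 0.27 on the log2 scale. At E16.5 2 were higher in females and 3 lower. Beside these counts and those of the next 2 lists, 6.28% of all tested genes were called at E14.5. The shares were 27.3% at E16.5 and 23.9% in the uterus. Cic, the gene of the repressor whose octamers are shown above, averaged 546 CPM in females and 472 CPM in males at E16.5, and in the uterus 421 CPM in Amhr2+ and 487 CPM in Gli1+ cells. Its log2 differences were 0.21 and -0.21, with edgeR adjusted p-values of 0.030 and 0.028. Of 13 other receptor tyrosine kinases and ligands, 2 were higher and 1 lower in females at E14.5, 4 higher and 4 lower at E16.5, and 5 lower and none higher in uterine Amhr2+ cells. Met, the receptor of hepatocyte growth factor, fell in females from 12.2 to 2.75 CPM with age. Of 14 other ETS factors tested in the fetal table, 3 were higher in females at E14.5, Ets1, Elk3 and Fli1, and none lower. Ets1 fell by 1.28 with age in females and was higher by 0.69 in uterine Amhr2+ cells on the log2 scale, while Elf4 had the opposite signs, at 0.51 and -0.71. In the uterus 1 ETS factor was higher and 1 lower, of 13 tested.

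**Figure D4:**
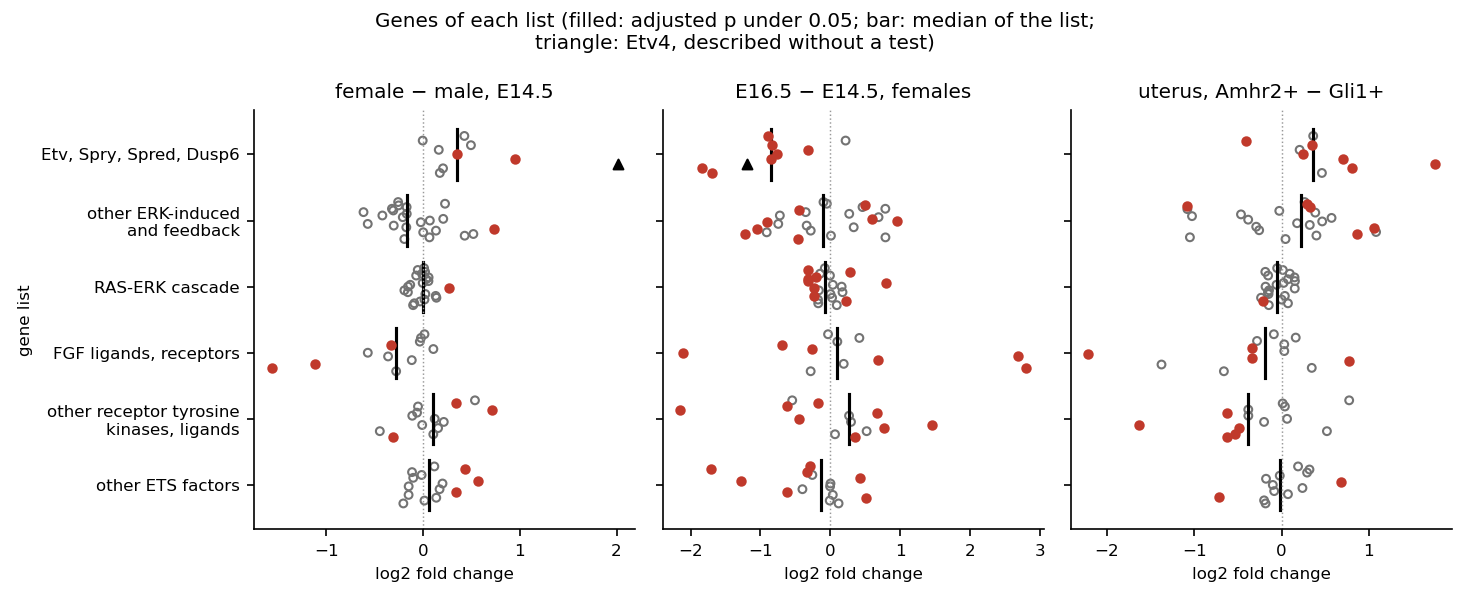
Log2 fold change (x axis) of the 9 genes and of the genes of 5 pathway lists (y axis) in 3 comparisons, 1 point per gene. Filled points passed an edgeR adjusted p of 0.05 over all tested genes, bars are list medians, and the triangle is Etv4 where it is described without a test. The 9 genes have a median of 0.35 between the sexes at E14.5, -0.85 for age in females and 0.36 in the uterus. These medians include Etv4, which was selected on its E14.5 values.

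Genes were also ranked by the root mean square difference of their centred log2 CPM from that of Etv4 over the 12 fetal libraries, among 14084 genes. The closest were Lhfpl3 at 0.38, Cdh22 at 0.40, Tmc8 at 0.42, Samd5 at 0.43 and Nebl at 0.44, where a flat gene would be at 1.01. Samd5 averaged 75.9, 37.7, 38.6 and 16.49 CPM in E14.5 females, E14.5 males, E16.5 females and E16.5 males, and the other 4 were at 5.37 CPM or less in every group. Etv5 ranked 258 and Etv1 13221 in likeness to Etv4. For Etv1, the other member with the widest range, the closest were a second row under the symbol Arhgap26 at 0.22, Fbln7 at 0.22, Cd40 at 0.23, Pltp at 0.23 and Mycl at 0.24, with a flat gene at 0.78. Pltp averaged 51.6, 55.6, 13.3 and 48.5 CPM in the same order of groups, low in E16.5 females as Etv1 was. Among the other 8 genes Spry4, at rank 316, and Dusp6, at rank 391, were nearest to Etv1.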

How the data were processed

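The deposited RNA-seq tables hold raw counts per gene for 12 fetal and 6 uterine libraries, as the authors made them. Per the submitters' processing notes the tools included STAR 2.5, featureCounts and Subread 1.5.0-p1, and Bowtie 1.2, SAMtools 1.3.1, Picard, bedtools 2.24.0 and MACS2 2.1.1, with no role given, and the build was mm10. Per the labels' protocols the fetal kit was non-stranded and the uterine kit stranded. Use of strand in counting is not given in the sources used here, so Spry1 and Spry4, which overlap genes on the opposite strand, are uncertain.

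Each table was fitted by itself in edgeR 4.0.16 under R 4.3.3, by its quasi-likelihood F test (filterByExpr, TMM, robust), with 17858 and 16195 of 41442 genes tested, Benjamini-Hochberg adjustment over all of them and a threshold of 0.05. The 4 fetal group means shared one spread. SE is the log2 change divided by the root of F. DESeq2 1.42.0, library-size scaling, no filter, the 6 compared libraries alone, a replicate block and leaving out each library were alternatives. The procedure was tested on simulated data. A floor of 3 counts lies between 0.0485 and 0.126 CPM for fetal libraries and between 0.0778 and 0.102 CPM for uterine ones, for counting error only. Rows repeating a symbol, 64 in all, were given a suffix.

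Deviations from the group mean of libraries with one number correlated at 0.284, 0.115 and 0.396 between the sexes at E16.5. All were above the limit of 0.1, so the numbers were treated as pairs there. Female replicate 2 and male replicate 1 also correlated at 0.108, so the limit does not settle the pairing. No label says what a number stands for. Elsewhere not all same-numbered correlations were above the limit, with 0.002, 0.221 and 0.243 in the uterus, and the numbers were not treated as pairs.

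The members and the gene lists were chosen with earlier results of these data known. Pathway genes named in the text are up to 3 per list, direction and comparison with the smallest adjusted p and 5 CPM or more on average in the higher group. Genes like Etv4 and Etv1 are the 5 nearest with a mean of at least 1 CPM. Egr1, Fos and the range of other marker genes are named from the marker lists, and Gli1 as a check of the labelled cells. Exon lengths and start sites are from GENCODE annotation of GRCm38, and upstream windows were read from its sequence.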

Additional observations from a re-analysis of the deposited data

Results flagged for a closer look

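For 4 of the 8 genes other than Etv4 the difference between the sexes itself differed between E14.5 and E16.5 by the interaction test in edgeR. Of all tested genes 10.0% passed that test. The change in the female minus male log2 difference was -2.05 for Etv1, -1.15 for Spry4, -1.12 for Etv5 and -0.54 for Spred1. Etv1, Spry4 and Etv5 passed in all 16 alternative settings, and Spred1 in 11 of 16. Etv1 and Spry4 were higher in males at E16.5, and Etv5 and Spred1 were higher in females at E14.5.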

How the results depend on the processing

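Of 779 alternative values of the 9 genes' log2 changes, without the Etv4 comparisons that use E14.5 libraries, 718 kept their side of the threshold, 41 lost the call and 20 gained it. No called value changed sign, and 12 uncalled values of Spry1 and Spry2 near 0 did. Among the 8 genes other than Etv4, DESeq2 gave 4 between the sexes at E14.5 instead of 2, where it called 1436 of 17858 genes. A fit of the 6 compared libraries alone gave 1 of the 8 instead of 2 for age in males, where it called 2794 of 17143 genes. Leaving out single libraries gave 1 or 2 of the 8 for age in males. In the uterus it gave 3 to 5 of the 9, with 3 without Amhr2+ replicate 1. Over all genes it gave 553 to 1678 calls between the sexes at E14.5, where leaving out any E14.5 library except male replicate 1 gave 553 to 686, 1335 to 2687 in the interaction, where the highest is without E16.5 male replicate 1, and 1949 to 3521 in the uterus, where Gli1+ replicate 1 left out gave 2521 and Amhr2+ replicate 1 left out gave 1949. The causes were not tested. As a replicate block the numbers gave 5901 genes at E16.5 instead of 4883, and 3 instead of 4 of the 9 genes. In the interaction, where the numbers were treated as pairs at E16.5 but not at E14.5, the block gave 2592 calls instead of 1790. It again called 4 of the 8 genes other than Etv4. Where numbers were not treated as pairs, the block gave 1581 calls at E14.5 and 6255 and 3463 for age in females and males. In the uterus it gave 4725 calls and 8 of the 9 genes. There Dusp6 at an edgeR adjusted p of 0.0177, Spred2 at 0.0366 and Spry4 at 0.0496 were gained, and Spry2 was lost at 0.0896. All 9 genes were above the floor of 3 counts in every library, and an effect of depth on the comparisons was not tested. The peak list has no depth.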
